A study of Mus musculus with 16 samples.

Results

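Transcripts of 10 genes of caveolae and endothelial transcytosis were measured in cultured mouse brain endothelial cells that carried human *APOE3* or *APOE4*. The genes were chosen by name as known parts of caveolae or regulators of vesicle transport across endothelium, and are Cav1, Cav2, Cavin1, Cavin2, Cavin3, Ehd4, Pacsin2, Pacsin3, Plvap and Mfsd2a. All 10 were found among the 39057 rows of the count table, and all 10 passed the filter on low counts that left 12481 genes for testing. The 16 libraries came from 8 *APOE3* and 8 *APOE4* cultures, with 4 male and 4 female mice per genotype. In both targeted replacement lines the mouse gene's own promoter drives the human isoform, so no culture held a wild-type mouse Apoe control. Cortices of mice aged 21 to 28 days were freed of meninges, and the cells were selected with puromycin at 8 µg/ml, seeded at 1 brain per well, grown to confluence and left untreated. Each well was therefore a separate animal.

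Human APOE was counted in every library, at 1172 ± 174 CPM (reads scaled to a common library total; SD, n = 8) in *APOE3* and 796 ± 134 CPM in *APOE4* cultures. Total counts were 12717847 to 18624417 per library. Brain endothelial markers were plentiful, with a summed level of 22387 to 23922 CPM in *APOE3* and 22597 to 25050 CPM in *APOE4* libraries for all 17 markers on the list. Pericyte and smooth muscle markers summed to 188 to 354 and 223 to 340 CPM. Most of this was Acta2 (means of 83.8 and 80.3 CPM) and Tagln (161 and 178 CPM). None of the 12 was at 0 in all libraries, and 7 passed the filter. The others, Rgs5, Kcnj8, Abcc9, Vtn and Higd1b, had genotype means of at most 0.394 CPM. Fibroblast markers summed to 24.9 to 75.4 and 28.2 to 106 CPM, with Dpt at 0. Astrocyte, microglia and neuron markers each summed to less than 10 CPM in every library, with Gjb6, P2ry12 and Itgam at 0. Oligodendrocyte markers summed to 24.5 to 32.2 and 31.6 to 38.0 CPM, mostly Cnp (means of 28.1 and 32.9 CPM), with Olig2 at 0. In bulk cultures, fewer cells of a type and less RNA per cell cannot be told apart.

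Caveolae are flask-shaped pits of the plasma membrane, built from caveolins that insert into the inner leaflet and from cavins that coat them from the cytosol. EHD and PACSIN proteins bind the necks of such pits and shape curved membranes. In most endothelium caveolae carry plasma proteins across the cell, whereas the endothelium of the blood-brain barrier keeps this traffic low. Mfsd2a, a transporter of lysophosphatidylcholine carrying omega-3 fatty acids, is known to restrain caveolar transcytosis there, and Plvap forms the diaphragms of caveolae and fenestrae in leaky vessels.

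Start-site sequences are shown for Cav1 and Ehd4, the pair of members whose levels moved together most closely across libraries. They are also shown for Cav2, the neighbour of Cav1 on chromosome 6, and for Pacsin2, the member that passed the genotype test. The sequences are upstream DNA from RefSeq on GRCm38.p6, printed 5′ to 3′ in the direction of the gene, with bases of annotated transcripts trimmed away. Capitals mark a GC box (GGGCGG on either strand) or a TATA box (TATAAA on either strand). Cav1 lies at chr6:17306085-17306334 on the plus strand, Cav2 at chr6:17280935-17281184 on the plus strand, Ehd4 at chr2:120154607-120154825 on the minus strand and Pacsin2 at chr15:83464607-83464856 on the minus strand.
Cav1: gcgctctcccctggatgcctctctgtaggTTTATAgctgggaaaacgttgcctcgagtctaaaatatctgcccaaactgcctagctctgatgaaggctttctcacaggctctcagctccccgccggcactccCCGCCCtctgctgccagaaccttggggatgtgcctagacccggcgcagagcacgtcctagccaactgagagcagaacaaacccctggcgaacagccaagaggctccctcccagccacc
Cav2: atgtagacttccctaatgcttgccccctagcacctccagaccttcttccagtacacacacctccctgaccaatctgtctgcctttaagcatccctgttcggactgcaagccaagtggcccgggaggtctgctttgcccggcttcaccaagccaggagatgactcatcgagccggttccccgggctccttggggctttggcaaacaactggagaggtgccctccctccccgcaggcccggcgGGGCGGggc
Ehd4: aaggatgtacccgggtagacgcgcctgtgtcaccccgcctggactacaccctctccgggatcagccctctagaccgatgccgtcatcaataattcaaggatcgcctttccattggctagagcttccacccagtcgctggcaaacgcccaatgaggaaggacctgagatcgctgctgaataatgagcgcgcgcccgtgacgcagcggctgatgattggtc
Pacsin2: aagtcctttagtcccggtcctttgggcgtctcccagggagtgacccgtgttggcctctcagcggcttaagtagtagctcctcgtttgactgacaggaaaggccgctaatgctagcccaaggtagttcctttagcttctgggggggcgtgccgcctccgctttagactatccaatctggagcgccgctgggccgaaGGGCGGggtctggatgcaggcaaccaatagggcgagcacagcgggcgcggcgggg
The windows of Cav1, Cav2 and Pacsin2 each held 1 GC box, which 32.7% of 32851 mouse promoter windows of 250 bases hold, and the trimmed Ehd4 window of 219 bases held 0, whereas its full window of 250 bases held 1. The RefSeq table lists 2 start sites for Cav1 and 3 for Pacsin2, and the window printed is the one farthest upstream. The other windows of both genes held 0 GC boxes, and the other Cav1 window held 0 TATA boxes. The TATA letters were found in the Cav1 window, on the strand opposite to the gene (printed as TTTATA) and near the window's upstream end, far from the start site. Of all windows 12.4% hold them at any place on either strand. Letters of an ETS core (GGAAG on either strand, in 64.1% of all windows) were found at 2 places each in the windows of Cav2 and Ehd4, and those of a CACCC box (CACCC on either strand, in 52.0%) at 3 places in that of Ehd4. Such matches describe the letters only and locate no bound factor.

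The members covered a wide range of transcript levels. Per kilobase of exon (RPKM, which is CPM divided by exon length in kilobases, mean ± SD over 16 libraries), Cavin1 stood at 479 ± 20.5 and Cav1 at 441 ± 37.0, which placed them 44th and 50th among the genes tested. These are the cavin and the caveolin without which caveolae do not form. Cavin3 followed at 169 ± 9.94, Cavin2 at 117 ± 5.45 and Ehd4 at 99.5 ± 9.95 RPKM. Below them came Cav2 at 55.7 ± 1.63, Plvap at 33.3 ± 8.14 and Pacsin2 at 29.5 ± 2.04 RPKM. Mfsd2a, at 1.52 ± 0.318 RPKM, and Pacsin3, at 0.422 ± 0.0830 RPKM, were far lower, and ranked 9921st and 11672nd. Pacsin2, the next member above Mfsd2a, was on average 20.2 times as high.

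Some neighbours in this order could not be separated. Cavin1 was above Cav1 in 12 of 16 libraries and Plvap above Pacsin2 in 8 of 16, with overlapping ranges in both pairs. Cavin2 was above Ehd4 in 15 of 16 libraries, and Cav2 above Plvap in 16 of 16, although across libraries the ranges of each pair overlapped. The other steps of the order, from Cav1 to Cavin3, from Cavin3 to Cavin2, from Ehd4 to Cav2, from Pacsin2 to Mfsd2a and from Mfsd2a to Pacsin3, had ranges that lay apart.

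**Figure D1:**
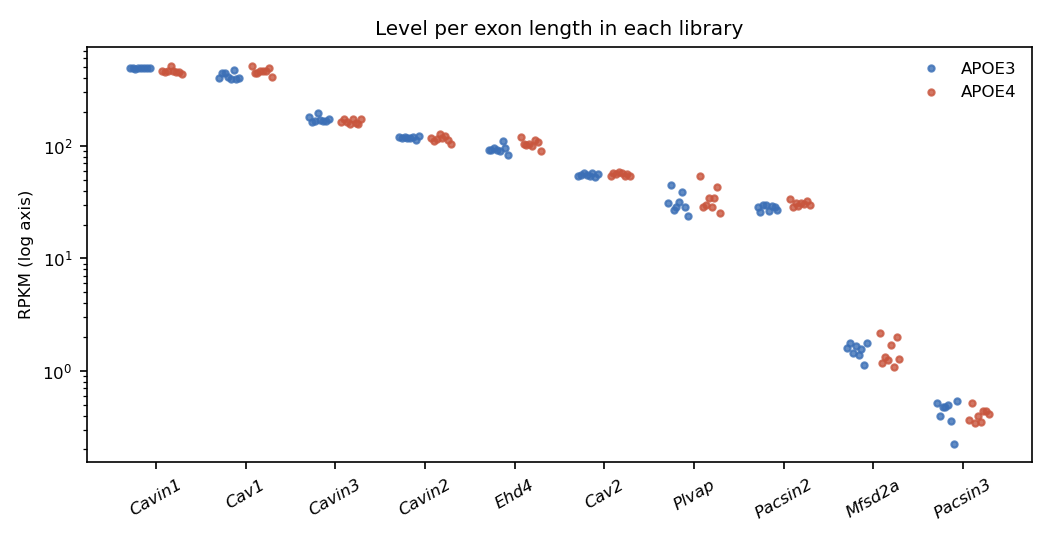
Level of the 10 members per kilobase of exon (RPKM, log axis), 1 point per library, blue for *APOE3* and red for *APOE4*. Cavin1 and Cav1 lie highest at means of 479 and 441 RPKM, and Mfsd2a and Pacsin3 lie lowest at 1.52 and 0.422 RPKM.

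Between genotypes the members differed little. In edgeR's quasi-likelihood fit, with p-values adjusted over all 12481 genes, Pacsin2 alone passed, so 1 of 10 was called higher and 0 of 10 lower in *APOE4* cultures. Across all genes 12.8% were called, 6.71% higher and 6.09% lower, so the members' share was near that of the table. The median log2 fold change of the members was -0.0041, beside -0.00022 over all genes tested, and the median size of the change was 0.0903 beside 0.0890. At an unadjusted p under 0.05 stood 4 members (Cav1, Cavin1, Ehd4 and Pacsin2), and 29.0% of all genes. In no member did the genotypes lie apart without overlap, as they did in 0.625% of all genes (0.256% with *APOE4* higher and 0.369% with *APOE4* lower).

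**Figure D2:**
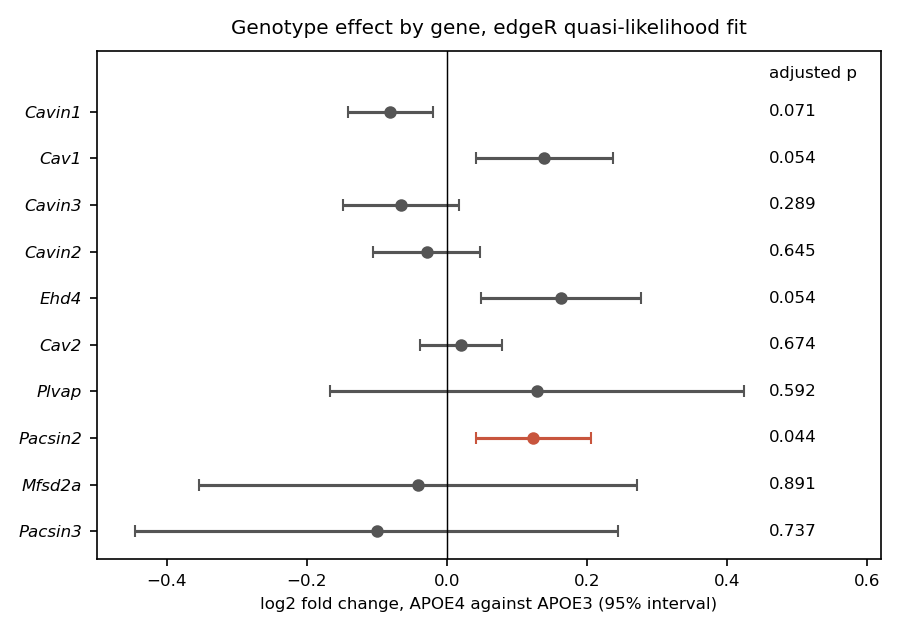
Log2 fold change of each member in *APOE4* against *APOE3* cultures, with bars for the 95% confidence interval of edgeR's fit. The interval of Pacsin2 (0.04 to 0.21) passes the adjusted test, and those of Pacsin3, Plvap and Mfsd2a are the widest.

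Cav1 (ENSMUSG00000007655.16, GRCm38 chromosome 6 from 17306335 to 17341452, plus strand) encodes caveolin 1, the main structural protein of endothelial caveolae. Its lowest, median and highest levels were 1357, 1401 and 1625 CPM in *APOE3* libraries and 1400, 1606 and 1776 CPM in *APOE4* libraries. The ranges overlapped widely, yet 7 of 8 *APOE4* libraries lay above the *APOE3* median and 2 above the highest *APOE3* library. The log2 fold change was 0.14 (SE 0.0468, 95% interval 0.04 to 0.24), with an adjusted p of 0.0538 that missed the threshold of 0.05. With all libraries DESeq2 gave Cav1 an adjusted p of 0.0353 and voom 0.0391, and edgeR's fit passed without *APOE3* replicate 27 or 31 or *APOE4* replicate 43 (0.0489, 0.0158 and 0.0185). Cav1 missed the threshold in 13 of 16 edgeR fits that each left out 1 library, with adjusted p-values up to 0.113.

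Cav2 (ENSMUSG00000000058.6, chromosome 6 from 17281185 to 17289115, plus strand) encodes caveolin 2, which joins caveolin 1 in mixed oligomers. Its gene ends 17220 bases before the start of Cav1. Levels were 176, 185 and 191 CPM in *APOE3* and 181, 188 and 194 CPM in *APOE4* libraries (lowest, median, highest). The genotypes lay almost on top of each other, and Cav2 was the steadiest member, with a coefficient of variation of 2.92% over 16 libraries. Its log2 fold change was 0.02 (95% interval -0.04 to 0.08, adjusted p = 0.674).

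Cavin1 (ENSMUSG00000004044.9, chromosome 11 from 100956733 to 100970887, minus strand) encodes the cavin that all caveolar coats need. The *APOE3* libraries were tightly grouped at 1733, 1766 and 1789 CPM, and the *APOE4* libraries ran from 1577 through a median of 1650 to 1844 CPM. Of the *APOE4* libraries 7 of 8 lay below the lowest *APOE3* library, and the other one, replicate 38, lay above the highest. The log2 fold change was -0.08 (SE 0.0292, 95% interval -0.14 to -0.02), and its adjusted p of 0.0708 missed the threshold. Without *APOE4* replicate 38 it was -0.10 with an adjusted p of 0.0149, and with all libraries DESeq2 gave an adjusted p of 0.0243 and limma's voom 0.0488. Cavin1 missed the threshold in 15 of 16 edgeR fits that each left out 1 library, with adjusted p-values up to 0.131.

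Neither of the other cavins passed the test. Cavin2 (ENSMUSG00000045954.7, chromosome 1 from 51289126 to 51302960, plus strand), which bends the membrane of the coat, had 345, 363 and 372 CPM in *APOE3* and 317, 355 and 387 CPM in *APOE4* libraries. The *APOE4* range enclosed the whole *APOE3* range, and the log2 fold change was -0.03 (95% interval -0.10 to 0.05, adjusted p = 0.645). Cavin3 (ENSMUSG00000037060.3, chromosome 7 from 105480083 to 105482300, minus strand), which links the coat to protein kinase C delta, had 272, 282 and 328 CPM in *APOE3* and 261, 272 and 290 CPM in *APOE4* libraries. Of its *APOE4* libraries 4 of 8 lay below the lowest *APOE3* library, with a log2 fold change of -0.07 (95% interval -0.15 to 0.02, adjusted p = 0.289). On the opposite strand Gm45667 shares 374 bases, or 22.5%, of the Cavin3 exons, and with the strand setting unknown their reads cannot be told apart.

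The neck proteins held the called member. Ehd4 (ENSMUSG00000027293.13, chromosome 2 from 120089175 to 120154606, minus strand), an ATPase of endocytic membranes that is found at caveolar necks, had 333, 370 and 443 CPM in *APOE3* and 360, 416 and 481 CPM in *APOE4* libraries. Above the *APOE3* median lay 7 of 8 *APOE4* libraries, and the ranges overlapped. The log2 fold change was 0.16 (SE 0.0548, 95% interval 0.05 to 0.28), with an adjusted p of 0.0536. The adjusted p of Ehd4 was 0.0348 with DESeq2, 0.0353 with voom and 0.0480 with at least 10 counts in every library, and it was 0.00942 without *APOE3* replicate 31 and 0.0180 without *APOE4* replicate 43. Ehd4 missed the threshold in 14 of 16 edgeR fits that each left out 1 library, with adjusted p-values up to 0.110.

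Pacsin2 (ENSMUSG00000016664.14, chromosome 15 from 83375607 to 83464606, minus strand) encodes an F-BAR protein that sculpts the caveolar neck. It had 127, 141 and 148 CPM in *APOE3* and 142, 151 and 166 CPM in *APOE4* libraries. The *APOE3* median was exceeded by all 8 *APOE4* libraries and the highest *APOE3* library by 5. Pacsin2 was higher in *APOE4* cultures by a log2 fold change of 0.12 (SE 0.0393), or 1.09-fold (95% interval 1.03 to 1.15), with an adjusted p of 0.0435. The call held in 6 of 16 fits that each left out 1 library, with adjusted p-values of 0.0307 to 0.0955, and was lost without *APOE3* replicate 25, 26, 30, 32 or 33 or *APOE4* replicate 35, 37, 39, 40 or 41. It was also lost with voom (adjusted p = 0.0527), without a filter on low counts (0.0716) and with a cell cycle score as a covariate (0.980).

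Pacsin3 (ENSMUSG00000027257.13, chromosome 2 from 91255954 to 91264679, plus strand), the relative that is best known from muscle caveolae, rested on 15 to 36 counts per library. Its levels were 0.976, 2.05 and 2.35 CPM in *APOE3* and 1.48, 1.76 and 2.23 CPM in *APOE4* libraries, so that the *APOE4* range lay inside the *APOE3* range. Its log2 fold change of -0.10 had a 95% interval of -0.44 to 0.24 (adjusted p = 0.737), which holds differences of either sign. Gm17281 on the other strand shares 42 bases, or 0.97%, of its exons.

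**Figure D3:**
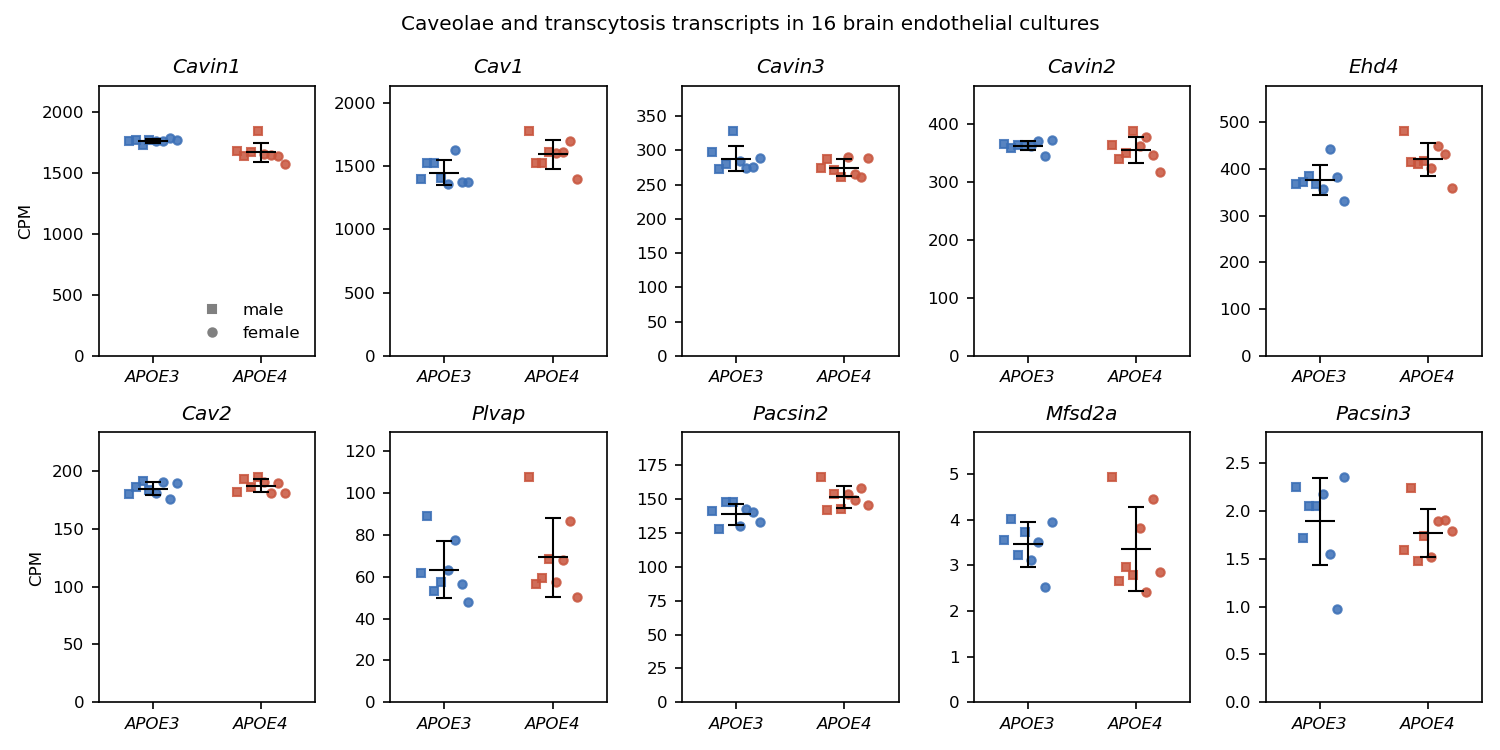
Level of each member in every library (CPM), with males as squares, females as circles and a bar at the mean with its SD (n = 8). For Cavin1, 7 *APOE4* libraries lie below the *APOE3* points and 1 above them, and for Pacsin2 all 8 lie above the *APOE3* median of 141 CPM.

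Neither Plvap nor Mfsd2a showed a called difference, and transcript levels do not measure permeability. Plvap (ENSMUSG00000034845.6, chromosome 8 from 71497765 to 71511752, minus strand) had 47.8, 59.6 and 88.8 CPM in *APOE3* and 50.2, 63.7 and 107 CPM in *APOE4* libraries. Its libraries scattered widely, with a coefficient of variation of 24.4% over 16 libraries and the highest library 2.25 times the lowest, although each held 713 to 1592 counts. The log2 fold change was 0.13 (95% interval -0.17 to 0.42, adjusted p = 0.592), and it ran from 0.015 without *APOE4* replicate 35 to 0.21 without *APOE3* replicate 26. Mfsd2a (ENSMUSG00000028655.11, chromosome 4 from 122946850 to 122961188, minus strand) had 2.54, 3.54 and 4.01 CPM in *APOE3* and 2.43, 2.90 and 4.92 CPM in *APOE4* libraries, from 36 to 82 counts. The *APOE4* range enclosed the *APOE3* range, and the log2 fold change was -0.04 (95% interval -0.35 to 0.27, adjusted p = 0.891).

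The genotype difference was also measured within each sex, since the mice were of both sexes. Cav1 was 0.14 higher on the log2 scale in *APOE4* males and 0.14 higher in *APOE4* females. Pacsin2 differed by 0.10 in males and 0.15 in females, Ehd4 by 0.21 and 0.12, and Cavin1 by -0.04 and -0.12. These members were the ones with an unadjusted p under 0.05 in the fit of both sexes together. Their shared directions were therefore likely beforehand and are no separate evidence. Cav2, Cavin2, Cavin3 and Plvap also kept their sign in both sexes. Mfsd2a differed by -0.14 in males and 0.06 in females, and Pacsin3 by -0.20 and 0.01. With 4 libraries per arm, 0 of 10 members were called in males, in females or in the difference between the sexes, where 0 of 12481 genes passed as well and 14.2%, 19.5% and 2.76% of genes had an unadjusted p under 0.05. Between females and males 0 of 10 members passed, beside 0.0721% of all genes (0.0401% higher and 0.032% lower in females), and 4.41% of genes had an unadjusted p under 0.05.

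The fold changes of Cav1 and Cavin1 had opposite signs, and 5 ratios between members were compared within libraries, which frees them from the scaling between libraries. These ratios are built from the same counts as the fits above. Cav1 and Cavin1 each had an unadjusted p under 0.05 there, as had 29.0% of all genes. A difference in their ratio was therefore likely beforehand and is no separate evidence. Ratios of other gene pairs were not computed for comparison. The ratio of Cavin1 to Cav1 counts was 1.09, 1.26 and 1.31 in *APOE3* and 0.947, 1.05 and 1.14 in *APOE4* libraries (lowest, median, highest). Below the *APOE3* median were all 8 *APOE4* libraries, and 5 were below the lowest *APOE3* library. The ratio fell by 0.22 on the log2 scale (two-sided exact permutation test over 12870 assignments, p = 0.0014, Benjamini-Hochberg adjusted over 5 ratios 0.00699). Per kilobase of exon the ratio was 1.18 ± 0.0801 in *APOE3* and 1.01 ± 0.0692 in *APOE4* cultures (SD, n = 8). The log2 difference was -0.18 in males and -0.26 in females, each with an exact permutation p of 0.0571 over 70 assignments.

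The remaining ratios did not pass. Cav2 to Cav1 differed by -0.12 on the log2 scale (exact permutation p = 0.0210, adjusted 0.0524) and Cavin2 to Cavin1 by 0.05 (exact permutation p = 0.0555, adjusted 0.0925). Cav2 to Cav1 passed the adjusted exact test without *APOE3* replicate 26 or 31 or *APOE4* replicate 36 or 43, and Cavin2 to Cavin1 without *APOE4* replicate 43. Cavin3 to Cavin1 and Plvap to Cav1 differed by 0.02 and -0.02, each with an exact permutation p adjusted to 0.850.

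Across the 16 libraries, with the mean of each genotype removed, 3 of 45 pairs of members were correlated after adjustment, all positively. Of these pairs, Cav1 and Ehd4 had the closest relation, with Pearson's r 0.841 (permutation p adjusted over 45 pairs 0.0018) and Spearman's rho 0.800 (permutation p adjusted 0.0157). It held within *APOE3* (r 0.784) and within *APOE4* libraries (r 0.892), and r was 0.692 without the 2 libraries farthest from the median of Cav1. Cav1 and Plvap had r 0.783 (permutation p adjusted 0.00742) and rho 0.644 (permutation p adjusted 0.115), with r 0.664 without the 2 farthest libraries. Ehd4 and Plvap had r 0.710 (permutation p adjusted 0.0271) and rho 0.635 (permutation p adjusted 0.115), with r 0.530 without the 2 farthest. Both pairs with Plvap had lower r within *APOE3* than within *APOE4* libraries. The values were 0.595 and 0.923 with Cav1, and 0.526 and 0.859 with Ehd4. Pairs of coat proteins were not among those that passed. Cavin1 and Cavin2 had r 0.684 (permutation p = 0.010, adjusted 0.113) and rho 0.329 (permutation p adjusted 0.532), with r -0.0613 without the 2 farthest libraries. Lower values were found, with r 0.38 for Cav1 and Cav2 (permutation p adjusted 0.447) and 0.22 for Cav1 and Cavin1 (permutation p adjusted 0.666). Genes outside the members followed Cav1 more closely than Ehd4 did, with r from 0.913 (Cox5a) to 0.939 (Tnpo2) for the nearest 5. The share of all genes at such values was not measured.

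**Figure D4:**
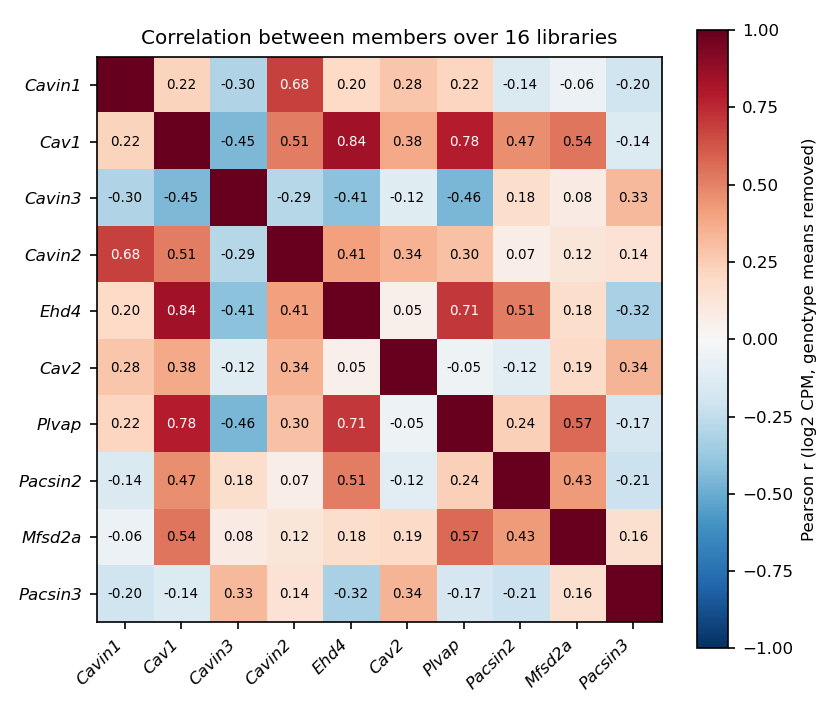
Pearson's r between each pair of the 10 members over 16 libraries, from log2 CPM with genotype means removed (colour scale from -1 to 1). Cav1, Ehd4 and Plvap form the 3 strongest pairs, at 0.84, 0.78 and 0.71.

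Cell cycle transcripts moved with several members. The share of all genes tested that did the same was not measured, so the relation cannot be called particular to the members. The cell cycle score, the mean log2 CPM of 12 cell cycle genes, was 5.73 ± 0.329 in *APOE3* and 6.29 ± 0.257 in *APOE4* libraries (SD, n = 8, exact permutation p = 0.00233). Its relation to the members was looked at after the values had been seen, with genotype means removed. Over 16 libraries r was 0.807 for Cav1 (rho 0.744), 0.816 for Ehd4 (rho 0.768) and 0.750 for Pacsin2 (rho 0.782), with permutation p-values of r adjusted over 10 members of 0.00095, 0.00095 and 0.00303. Without the 2 libraries farthest from the median score, r was 0.649, 0.638 and 0.718. For Plvap r was 0.609 (permutation p adjusted 0.0307), with rho 0.488 (permutation p adjusted 0.142) and r 0.371 without the 2 farthest libraries. The relation of Plvap was uneven, with r 0.314 within *APOE3* and 0.947 within *APOE4* libraries. The ratio of Cavin1 to Cav1 fell as the score rose, with r -0.755 (permutation p = 0.00081), rho -0.588 (permutation p = 0.0189) and r -0.569 without the 2 farthest libraries. Cavin1 itself had r 0.100, and Cavin2, Cavin3, Cav2, Pacsin3 and Mfsd2a did not pass either.

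With this score as a covariate in edgeR's fit, the log2 fold change was -0.01 for Cav1, -0.02 for Ehd4 and 0.01 for Pacsin2. It was -0.09 for Cavin1, with an adjusted p of 0.660. The score itself differed between genotypes, so the parts of score and genotype cannot be told apart here. In that edgeR fit 0 of 12481 genes were called, and 880 (7.05%) had an unadjusted p under 0.05. The part of cell cycle transcripts in the genotype difference was not tested beyond this.

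**Figure D5:**
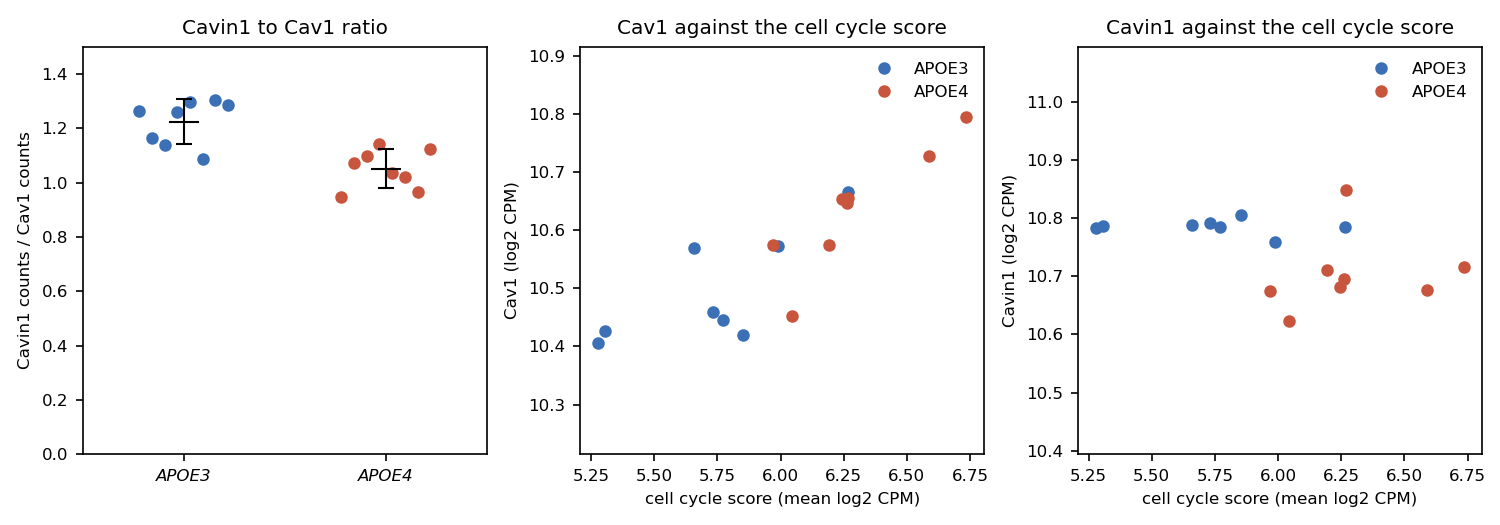
Ratio of Cavin1 to Cav1 counts in each library with the mean and SD of each genotype (left), and log2 CPM of Cav1 (middle) and Cavin1 (right) against the cell cycle score, 1 point per library. The ratio lies at 1.09 to 1.31 in *APOE3* and 0.947 to 1.14 in *APOE4* libraries, and Cav1 rises with the score while most *APOE4* points of Cavin1 lie below the *APOE3* points.

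Other genes of vesicle traffic were taken from a list of 57, of which 51 were tested. In *APOE4* cultures 5 of 51 were called higher and 5 lower, beside 6.71% and 6.09% of all genes, and the median log2 fold change was 0.0233. None of the 3 tested paralogs of caveolar proteins was called, and Ehd2, the ATPase that holds caveolae at the surface and the most abundant of them at 243 RPKM, differed by 0.02 on the log2 scale (adjusted p = 0.736). Cav3 and Pacsin1, forms best known from muscle and from neurons, had 0 counts in every library.

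The vesicle scission group had 2 of 7 genes called higher. These were Dnm3, a dynamin (log2 fold change 0.24, adjusted p = 0.0249), and Snx18, a membrane-bending sorting nexin (0.13, adjusted p = 0.0415). Dnm2, the dynamin of most cells and the highest of the group at 52.0 RPKM, differed by -0.02 (adjusted p = 0.709). Of 11 caveolar kinases, partners and flotillins 1 was called, Flot2, a raft scaffold protein (0.28, adjusted p = 0.0398). Flna, the highest of that group at 204 RPKM, differed by 0.13 (adjusted p = 0.214).

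Of 10 receptors that carry ligands across endothelium, 3 were called lower. Igf1r, the receptor of insulin-like growth factor, had 700, 741 and 831 CPM in *APOE3* and 562, 674 and 718 CPM in *APOE4* libraries. Below the lowest *APOE3* library lay 7 of its 8 *APOE4* libraries, and the log2 fold change was -0.18 (adjusted p = 0.0232). Ager, the receptor for advanced glycation end products, fell by 0.46 (adjusted p = 0.0188) on 47 to 103 counts per library, and Fcgrt, the neonatal Fc receptor, by 0.17 (adjusted p = 0.0382). Acvrl1, the highest of these receptors at 235 RPKM, differed by -0.07 (adjusted p = 0.0946).

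In the clathrin group 1 of 11 genes was called, the clathrin light chain Clta, at 117, 123 and 129 CPM in *APOE3* and 127, 132 and 146 CPM in *APOE4* libraries (log2 fold change 0.12, adjusted p = 0.0260). Epn1, the highest of that group at 79.2 RPKM, differed by 0.02 (adjusted p = 0.737). Of 9 fusion genes 2 were called lower. Vamp2, a SNARE of vesicle membranes, had 83.9, 91.8 and 109 CPM in *APOE3* and 69.2, 80.1 and 81.5 CPM in *APOE4* libraries. Every *APOE4* library lay below every *APOE3* library, as in 0.369% of all genes, and the adjusted p was 0.00727 for a log2 difference of -0.26 (SE 0.0537). Napa, which helps take SNARE complexes apart, fell by 0.13 on the log2 scale (adjusted p = 0.0197). Arf6, the highest of the fusion genes at 106 RPKM, differed by 0.07 (adjusted p = 0.189). The calls of Vamp2, Napa and Ager held in 16 of 16 fits that each left out 1 library, and those of Fcgrt, Flot2 and Snx18 in 7, 5 and 5.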

How the data were processed

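Poly(A) RNA was selected from 100 ng of total RNA per culture, amplified over 17 PCR cycles and read at 50 nt. The authors deposited counts of reads per gene, without normalization. The submitters' processing notes name STAR, featureCounts and the builds mm10 and hg38, and the annotation release and strand setting are not given in the sources used here. Of the rows, 38872 matched GENCODE mouse release 21, whose exons gave the lengths. Rows were filtered with filterByExpr by genotype, scaled by TMM and tested in R 4.3.3 with edgeR 4.0.16 (quasi-likelihood F test, genotype only, Benjamini-Hochberg adjustment over 12481 genes, threshold 0.05). Sexes were compared in 1 fit of 4 groups. Alternatives used limma 3.58.1, DESeq2 1.42.0, other filters and covariates, and each library left out. Ratios and scores used exact permutation tests and correlations 100000 permutations, in Python 3.11.15 with scipy 1.17.1. In simulated counts with 200 of 12481 genes changed, the fit recovered 154 at a log2 change of 0.5 and 195 at 1. False calls numbered 8 and 7. Smaller changes, such as those fitted for the members, were not simulated. Reads carry no molecular identifiers, so depth covers counting error only. The members and lists were chosen with earlier results of these data known. Named were all members, each called gene and the most abundant gene per group of the vesicle traffic list, and the 5 genes most correlated with Cav1 and with Plvap. Of the vesicle traffic list, 1 called gene is counted in the totals but not reported here. No batch is named in the labels used here.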

Additional observations from a re-analysis of the deposited data

Results flagged for a closer look

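In 4 of 30 groups of 8 libraries, 1 library stood apart from the others by Dixon's test, whereas chance gives about 1.5 such groups. Cavin1 was at 1844 CPM in *APOE4* replicate 38, beside 1577 to 1682 CPM in the other *APOE4* libraries. Cavin3 was at 328 CPM in *APOE3* replicate 28, beside 272 to 298 CPM. Ehd4 was at 443 CPM in *APOE3* replicate 31, beside 333 to 385 CPM, and without that library its log2 fold change was 0.20 with an adjusted p of 0.00942. The ratio of Cavin2 to Cavin1 counts was 0.193 in *APOE3* replicate 32, beside 0.203 to 0.211 in the other *APOE3* libraries.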

How the results depend on the processing

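No paired analysis was possible because the genotypes share no replicate numbers. The number of genes called, 1597 in the fit reported, was 0 when the cell cycle score was added as a covariate, and ran from 846 without *APOE4* replicate 41 to 2127 without *APOE3* replicate 31 when libraries were left out in turn. Members called higher, 1 as reported, numbered 0 without a filter or with the score, 2 with at least 10 counts in every library (Ehd4 and Pacsin2) or with voom (Cav1 and Ehd4, without Pacsin2), 3 with DESeq2 (Cav1, Ehd4 and Pacsin2) and 0 to 3 with 1 library left out. Members called lower, 0 as reported, numbered 1 (Cavin1) with DESeq2 and with voom and 0 to 1 with 1 library left out. Genes of vesicle traffic called higher, 5 as reported, numbered 2 without a filter, 0 with the score and 0 to 6 with 1 library left out, and those called lower 0 with the score, 8 with DESeq2 and 3 to 8 with 1 library left out. With the score the log2 fold changes of Cav1 (-0.012), Ehd4 (-0.018), Pacsin3 (0.15) and Plvap (-0.28) changed sign. With 1 library left out Mfsd2a ran from -0.13 to 0.014 and Plvap from 0.015 to 0.21, and the log2 ratio differences from -0.25 to -0.20 for Cavin1 to Cav1, which passed in 16 of 16, from -0.14 to -0.090 for Cav2 to Cav1, from 0.035 to 0.063 for Cavin2 to Cavin1, from -0.0037 to 0.049 for Cavin3 to Cavin1 and from -0.098 to 0.039 for Plvap to Cav1. The causes were not tested. Pacsin3 and Mfsd2a rested on few counts, 15 to 36 and 36 to 82 per library.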

Other observations

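The spread of Cavin1 had different values in the genotypes. Its coefficient of variation was 0.872% in *APOE3* libraries, where counting error alone gives 0.604%, and 4.66% in *APOE4* libraries, or 2.12% without replicate 38. Cavin2 had 2.28% in *APOE3* and 6.28% in *APOE4* libraries, and Cavin3 the opposite order, with 6.41% and 4.51%. The difference in spread was not tested.

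Of 5576 genes with a mean log2 CPM above 5, those whose levels followed Cav1 most closely over 16 libraries, with genotype means removed, were Tnpo2 (r 0.939), Myo1c (0.938), Pabpc1 (0.935), Fn1 (0.916) and Cox5a (0.913). For Plvap they were Glrx5 (r 0.907), Rplp1 (0.906), Tmem214 (0.896), Rps26 (0.886) and Fzr1 (0.879). These values describe the same 16 libraries, which share depth and scaling.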
